A study of Mus musculus with 20 samples.

Results

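Voltage-gated and potassium ion channel genes of the mouse left ventricle were examined over 4 diets. They were chosen by gene symbol alone, as genes named Kcn with letters and a number, Scn with a number and a or b, Cacn with letters and numbers, or Hcn with a number, and 1 gene of that form was left out of the set. The count table listed 81 such genes among 15956, and 66 of the 81 had enough counts to be tested among 13991 tested genes. The annotation held 135 protein-coding genes of this form. The 54 without a row in the table, among them Kcnj11, the pore of the ATP-sensitive channel of heart muscle, were not analysed here.

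RNA was sequenced from left ventricular heart tissue of 20 mice, 5 for each diet, with a library kit that reads the 3′ end of each polyadenylated transcript. The title of LP mouse 5 also calls it sample 2 without further detail, and it was counted as the fifth LP mouse. The groups are called NP for the normal protein diet, HF for the diet high in fat, LP for the diet low in protein and HF+LP for the diet that was both. All mice carried the label of 18 months of age, while the methods of the study place the end of feeding at a younger age. The methods describe the mice as male and the diets as differing in casein and fat, and the strain was not given in the sources used here. The comparisons asked how a high-fat diet altered the ventricular transcriptome and whether protein restriction altered that response.

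Channel proteins let ions cross the cell membrane and so shape each heartbeat. Sodium channels start the action potential, L-type calcium channels hold the plateau and admit the calcium that triggers contraction, and voltage-gated, inward rectifier and tandem-pore potassium channels bring the membrane back to rest and keep it there. T-type calcium channels and the Hcn pacemaker channels are best known from nodal cells, although ventricular muscle also uses some of them. Pore subunits form the path for the ions, and accessory subunits set how many pores reach the membrane and how fast they open and close.

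Total counts per mouse ranged from 12559607 to 23331907. The ventricular markers Myh6, Myl2, Myl3, Tnnt2, Tnni3, Pln, Ryr2 and Actc1 were high in every library, with a summed normalized count, the count scaled for library size, of 595569 to 955941. The atrial markers Nppa, Myl7, Myl4, Sln and Bmp10 differed far more between mice. Their sum ranged from 2431 to 60414 in NP, from 1889 to 204539 in HF, from 2199 to 259457 in LP and from 973 to 87131 in HF+LP. Myl7, the atrial myosin light chain, reached a normalized count of 1000 in 10 libraries, namely NP mice 4, 5 and 8, LP mice 13, 15 and 20, HF mice 1 and 3, and HF+LP mice 3 and 4. LP mouse 13 also stood apart from its group, with a median correlation of 0.908 to the other LP mice against 0.944 to 0.979 for every other mouse within its own group. Fat cell markers summed to 2937 in that mouse, and the lowest sum of the 20 libraries was 4.27. LP mouse 20 had the next highest sum, 974, and 5 members, among them Kcnn4 and Kcnab2, had over 2 times the normalized count of any other mouse there. Results that moved far without those libraries are given below with that value as well.

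Channel genes of the left ventricle spanned a wide range of levels. A count in these libraries does not grow with transcript length, because each transcript is read at its 3′ end, so normalized counts of different genes are set side by side without division by length. The most abundant member was Kcnk3, which encodes an acid-sensitive tandem-pore channel of the background potassium current, with a mean normalized count of 6976 over the 20 mice and a coefficient of variation of 11.7%. It supplied 96.3% of all counts of its class. Kcnip2, the accessory subunit of the transient outward current, had a mean of 4179 and supplied 94.9% of the accessory subunit counts of voltage-gated potassium channels. Cacna2d1, an auxiliary subunit of calcium channels, had a mean of 1663. Cacna1c, the L-type calcium channel pore of working heart muscle, had a mean of 1155 and made up 75.5% of the calcium pore counts. The pore subunits of voltage-gated potassium channels were spread over more genes, and the leading member, the silent subunit gene Kcng2, held only 28.9% of the class.

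**Figure D1:**
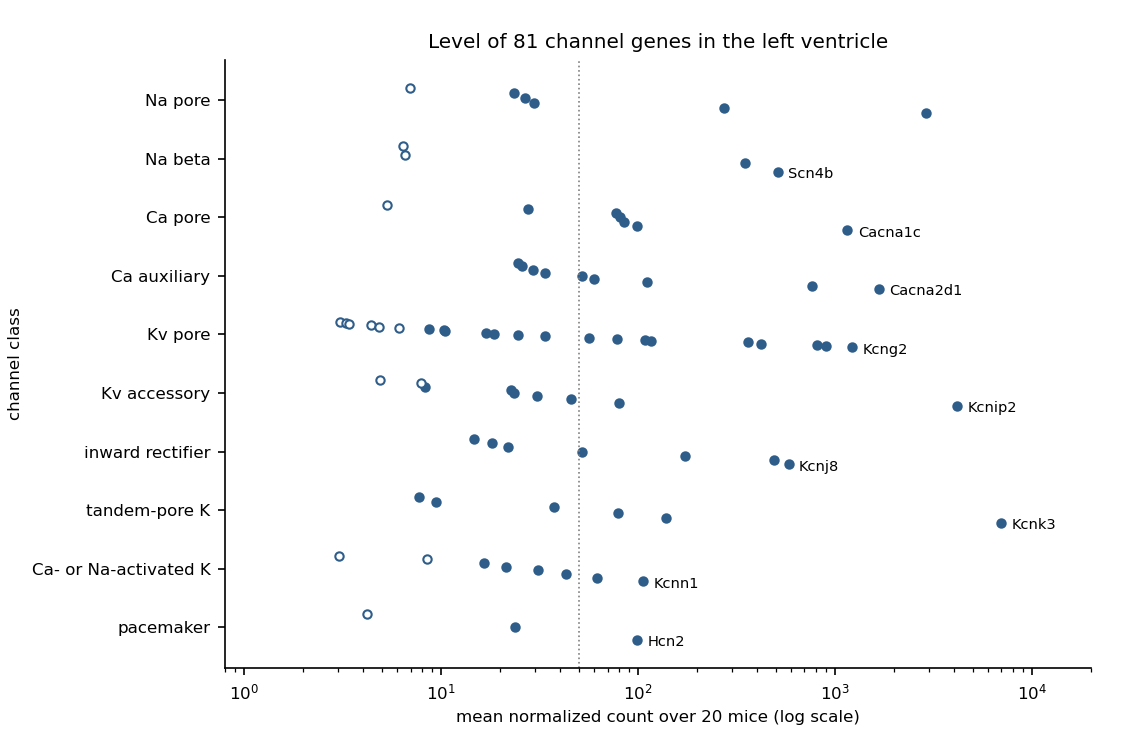
Mean normalized count of the 81 channel genes over 20 mice, on a log axis, by channel class. Filled points were tested and open points were not, the dotted line marks a mean of 50, and names mark the most abundant gene of a class, from Kcnk3 at 6976 down to Hcn2 at 98.5.

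A gene was called different between diets when its adjusted p from edgeR's quasi-likelihood test (Benjamini-Hochberg over 13991 genes) was under 0.01 and its mean normalized count was over 50, the thresholds that the methods of the study name. At these thresholds 2 of the 66 tested channel genes were called. Both fell with fat when the contrast was averaged over the 2 protein levels, that is, HF and HF+LP against NP and LP. They were Cacna1g, the pore of a T-type calcium channel, and Cacna1c, the pore of the L-type calcium channel. In the same contrast 1% of all tested genes were called. In this bulk tissue, fewer cells that use a gene and less of its RNA in each cell cannot be told apart.

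Cacna1g lies on the minus strand of chr11:94408391-94474198 (GRCm38). Its normalized counts were 124, 107, 102, 112 and 97.3 in the NP mice and 69.2, 80.0, 106, 136 and 78.2 in the LP mice. They were 66.1, 32.9, 73.4, 51.0 and 45.3 in the HF mice and 61.5, 58.8, 34.2, 44.8 and 72.2 in the HF+LP mice. Every HF mouse was below every NP mouse, whereas the LP mice reached both above the NP mice and down to the range of the high-fat mice. The group means were 109 ± 10.4 in NP, 53.7 ± 16.2 in HF, 93.8 ± 27.3 in LP and 54.3 ± 14.9 in HF+LP (SD, n = 5 each). Averaged over the protein levels, Cacna1g was lower with fat by a log2 fold change of -0.90 ± 0.16 (SE), with an adjusted p of 0.0029 from edgeR. The difference was -1.01 ± 0.23 between HF and NP (adjusted p = 0.0284, edgeR) and -0.79 ± 0.23 between HF+LP and LP (adjusted p = 0.118, edgeR). Protein restriction gave 0.01 ± 0.23 between HF+LP and HF (adjusted p = 0.999, edgeR) and -0.21 ± 0.22 between LP and NP (adjusted p = 0.915, edgeR), and the first of these values changed sign under other scalings.

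Cacna1c lies on the minus strand of chr6:118587240-119196418. Its normalized counts were 1533, 1455, 1326, 1352 and 1400 in NP, and 1417, 1461, 1034, 1387 and 1115 in LP. They were 689, 781, 898, 910 and 1013 in HF, and 1094, 1048, 748, 1292 and 1145 in HF+LP. The HF mice all lay below the NP mice, and the HF+LP mice lay between these groups except for mouse 3, which was within the HF range. The averaged fat contrast was -0.49 ± 0.10 on the log2 scale (adjusted p = 0.00552, edgeR). Fat at normal protein gave -0.72 ± 0.14 (adjusted p = 0.0118, edgeR) and fat at low protein -0.27 ± 0.14 (adjusted p = 0.339, edgeR). HF+LP stood above HF by 0.31 ± 0.14 (adjusted p = 0.923, edgeR), and the fat effects at the 2 protein levels differed by 0.45 ± 0.19 (adjusted p = 0.684, edgeR).

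**Figure D2:**
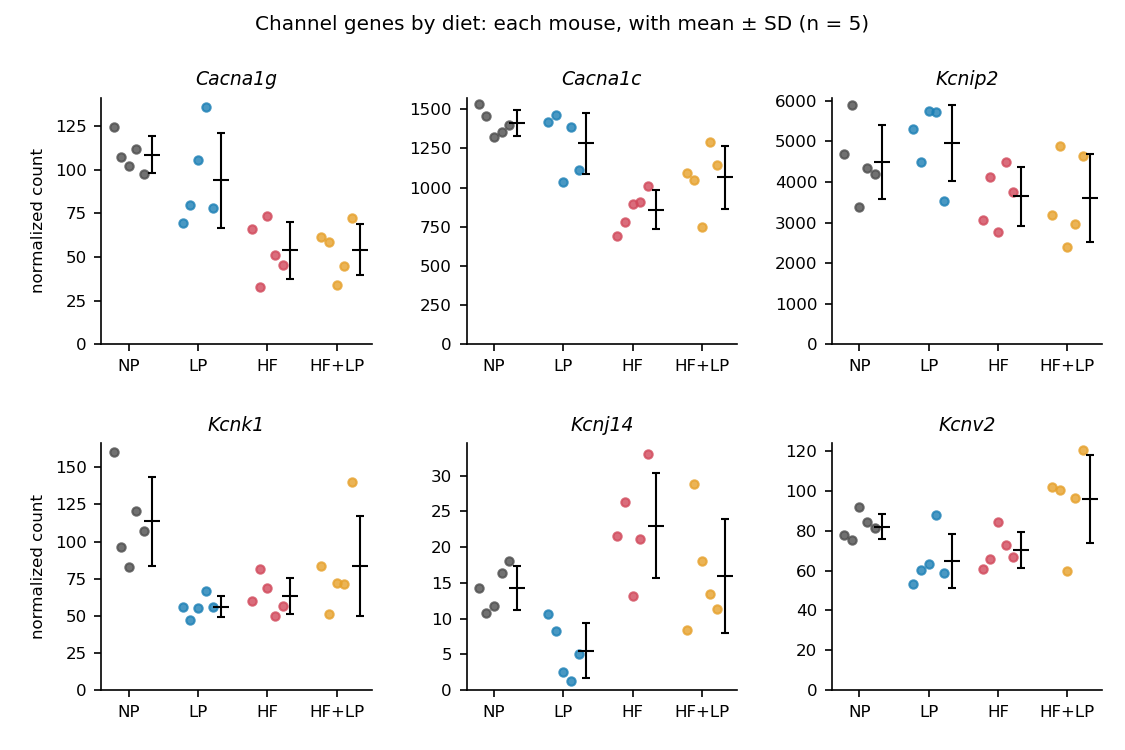
Normalized counts of 6 channel genes in each mouse by diet, each axis starting at 0, with the group mean and SD (n = 5) beside the points. Cacna1g and Cacna1c do not overlap between HF and NP, Kcnk1 does not overlap between NP and either LP or HF, and Kcnip2, Kcnj14 and Kcnv2 show the other patterns described in the text.

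The Cacna1c counts are given per gene and not per transcript, and the annotated transcripts start at places far apart. The RefSeq promoter table (GRCm38.p6, 250 bases before to 50 bases after each start) held windows for 58 of the 81 channel genes and 3 windows for Cacna1c, all on the minus strand of chromosome 6. The windows are shown because a count does not say from which of these starts a transcript came, and because their base composition differs. Capitals mark matches, on either strand, to the searched motifs, which were GGGCGG for the GC box, CACGTG for the E-box, AGATAA for the GATA motif, TATAAA for the TATA box and CTAAAAATA for the MEF2 core, and overlapping matches were counted separately.
Cacna1c start at chr6:119196360-119196659: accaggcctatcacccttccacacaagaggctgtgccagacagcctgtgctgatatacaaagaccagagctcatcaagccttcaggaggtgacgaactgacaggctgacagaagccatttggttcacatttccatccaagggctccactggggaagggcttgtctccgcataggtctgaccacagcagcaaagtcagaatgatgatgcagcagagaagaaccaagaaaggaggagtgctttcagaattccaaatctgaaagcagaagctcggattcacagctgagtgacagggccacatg
Cacna1c start at chr6:119108446-119108745: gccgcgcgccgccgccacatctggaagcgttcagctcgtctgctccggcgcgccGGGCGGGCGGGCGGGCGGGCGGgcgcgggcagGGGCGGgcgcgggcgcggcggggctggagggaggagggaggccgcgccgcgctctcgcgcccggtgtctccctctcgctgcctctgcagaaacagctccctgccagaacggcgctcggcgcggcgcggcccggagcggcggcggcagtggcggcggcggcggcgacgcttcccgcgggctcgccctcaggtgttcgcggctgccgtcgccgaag
Cacna1c start at chr6:118757925-118758224: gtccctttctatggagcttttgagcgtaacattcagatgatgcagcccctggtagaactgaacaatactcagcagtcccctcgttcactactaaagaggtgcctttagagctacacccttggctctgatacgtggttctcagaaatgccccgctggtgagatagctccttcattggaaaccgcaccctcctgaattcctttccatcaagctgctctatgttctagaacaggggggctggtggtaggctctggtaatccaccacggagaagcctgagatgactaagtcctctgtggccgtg

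The window in the middle was 81.3% G or C and held 6 matches to the GC box, whereas the windows on either side of it in this listing were both 51.3% G or C and held no match to any of the 5 motifs. Over all 32851 windows of the table the median was 52.7% G or C. The GC box was found in 35.7% of all windows, the E-box in 7.15%, the GATA motif in 11.2%, the TATA box in 13.6% and the MEF2 core in 0.517%. A match describes the letters of a window, and binding was not measured in this study.

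The summed normalized count of the 8 ventricular markers was 809370 to 955941 in NP, 656148 to 830204 in HF, 595569 to 893595 in LP and 642259 to 925507 in HF+LP, so that all groups overlapped. Of these markers Myh6, the main myosin heavy chain of mouse heart muscle, was 86689 to 110557 in NP and 53248 to 63287 in HF, with no overlap, and 67685 to 100723 in LP and 49071 to 86172 in HF+LP. Of 8 markers of smooth muscle and pericytes, 6 had a lower mean with fat at both protein levels. Myh11, the smooth muscle myosin heavy chain, was the 1 marker of this list whose high-fat mice all lay below the other mice. It was 204 to 494 in NP and 221 to 986 in LP, against 114 to 158 in HF and 108 to 172 in HF+LP. Cnn1, a calponin of smooth muscle, was 20.4 to 82.3 in NP and 14.6 to 21.1 in HF. The summed list, of which Rgs5 made up the most, was 10039 to 10968 in NP, 8279 to 10519 in HF, 8102 to 11883 in LP and 9473 to 12964 in HF+LP, and no marker of it was at 0. The summed endothelial markers had medians of 8203 in NP and 8257 in LP, against 10246 in HF and 9842 in HF+LP, with ranges that overlapped. The part of these cell types in the Cacna1g and Cacna1c results was not tested. With an atrial marker score as a covariate in the model, the averaged fat contrast was -0.84 for Cacna1g (adjusted p = 0.00783, edgeR) and -0.56 for Cacna1c (adjusted p = 0.00171, edgeR). Without the 10 libraries rich in Myl7 it was -0.81 and -0.52 with an adjusted p of 0.0477 for both (edgeR), so neither was called with 10 mice. In those mice the fat difference of Cacna1g was -1.41 at normal protein and -0.21 at low protein, and these differed by 1.20 (adjusted p = 0.557, edgeR), against 0.22 with all mice. Its protein difference there was 0.54 under high fat and -0.65 at normal fat. For Cacna1c the fat effects at the 2 protein levels differed by 0.26 in those mice.

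The Cacna1c call rested on a margin that single mice could close. Its averaged fat contrast stayed between -0.41 and -0.53 when each mouse was left out in turn, and its adjusted p from edgeR ranged from 0.00256 to 0.0136. The call was lost without NP mouse 3, 4, 6 or 8, LP mouse 2 or 15, HF mouse 1, 2 or 4, or HF+LP mouse 1, 2 or 3. Cacna1g was called without any single mouse, at adjusted p values of 0.00211 to 0.00775 (edgeR). With the animal number as a replicate block neither gene was called, at adjusted p values of 0.135 for Cacna1g and 0.092 for Cacna1c (edgeR).

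The HF and NP comparison called none of the channel genes, against 0.264% of all tested genes. DESeq2 called Cacna1c and Cacna1g in it, against 1.17% of all genes. With the limit on adjusted p set at 0.05, edgeR gave the same 2 genes against 1.12% of all genes, and the averaged fat contrast also gave them, against 3.59%. At an unadjusted p under 0.05 there were 10 channel genes (15.2%, against 13.1% of all tested genes), of which 9 were lower in HF (against 7.91% of all genes that were lower). The 9 became 5 without NP mouse 4, NP mouse 5 or HF mouse 5, and with RLE scaling or DESeq2 6 of 9 were lower. The log2 fold change was below 0 for 44 of 66 channel genes, a share of 66.7% against 50.2% of all tested genes, with a median of -0.20 against -0.0011. The share of counts from mitochondrial genes differed between the same groups without overlap, at 38.1% to 39.8% in HF and 41.3% to 47.1% in NP. With those genes removed before scaling, 43 of the 66 were below 0, against 46.5% of all genes, with a median of -0.17. For 4 channel genes the ranges of HF and NP were apart, against 5.67% of all genes. These were Cacna1g, Cacna1c and Kcnk1, which were lower, and Kcnab2, an accessory subunit of voltage-gated potassium channels with a low mean of 23.6, which was higher. Fat at low protein, HF+LP against LP, called no channel gene by edgeR, against 0.1% of all genes, and DESeq2 called Cacna2d2, against 0.6% of all genes. At an unadjusted p under 0.05 it gave 16 channel genes against 15.9% of all genes, of which 10 were lower (9.66% of all genes). Without the libraries rich in Myl7 these counts were 6 and 4, of 69 tested. No channel gene separated the groups, against 1.87% of all genes.

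The averaged fat contrast was below 0 for 50 of the 66 channel genes, a share of 75.8% against 53.1% of all tested genes, and its median was -0.14 against -0.02. At an unadjusted p under 0.05 there were 16 (20.8% of all genes), of which 13 were lower (12.6% of all genes). Without the libraries rich in Myl7 these counts were 10 and 7, of 69 tested. Over HF against NP and HF+LP against LP, which share no mice, 26 of 66 channel genes were below 0 in both, a share of 39.4% against 32.8% of all tested genes. Of the 66, 7 were above 0 in both and 33 had opposite signs, against 3979 and 5419 of all 13991 tested genes.

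**Figure D3:**
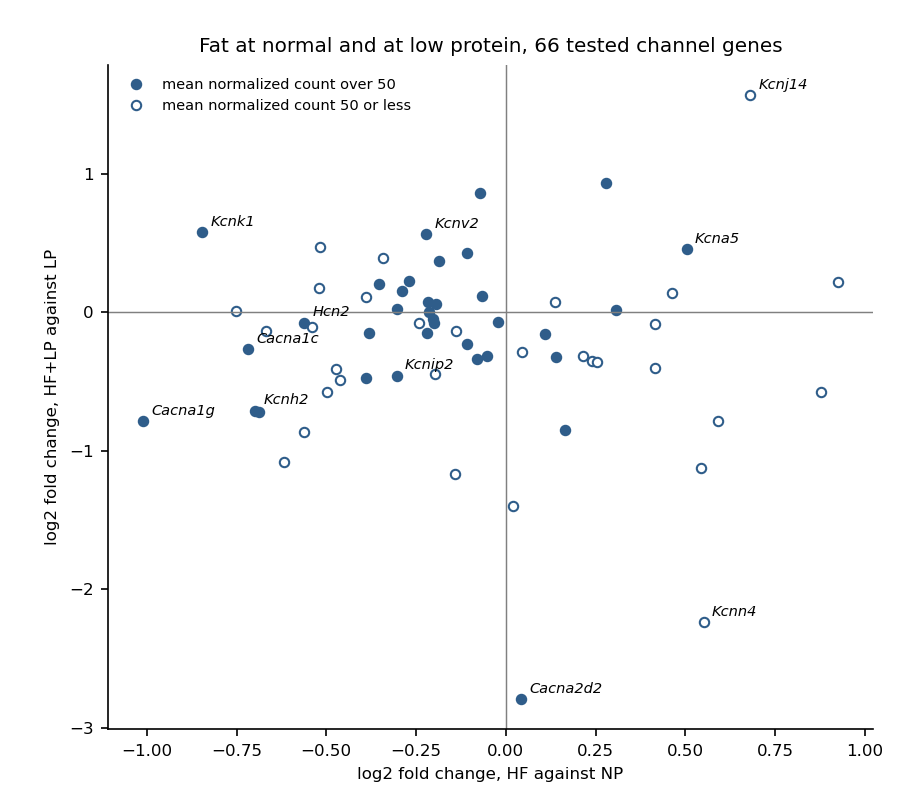
Log2 fold change of HF against NP (x axis) and of HF+LP against LP (y axis) for the 66 tested channel genes, with filled points for a mean normalized count over 50. The comparisons share no mice. Cacna1g lies at -1.01 and -0.79, Cacna2d2 at 0.04 and -2.79, and Kcnk1 at -0.85 and 0.58.

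By class, calcium pore subunits had the lowest median of the averaged fat contrast, -0.42 over 6 genes, with 5 of 6 below 0. Their summed normalized count was 1818 ± 78.4 in NP, 1203 ± 97.8 in HF, 1717 ± 154 in LP and 1381 ± 183 in HF+LP (SD, n = 5), and 75.5% of the counts of this class over all mice came from Cacna1c. Of the other pore genes of this class, Cacna1a, the pore of P/Q-type channels known from neurons, had group means of 88.7 to 110. Cacna1h, the pore of another T-type channel, was 77.1 ± 40.1 in NP, 87.0 ± 99.3 in HF, 113 ± 107 in LP and 63.2 ± 32.4 in HF+LP, and it was not called in any comparison. The log2 ratio of Cacna1g to Cacna1h within each mouse was lower in HF than in NP by 0.59, within the spread between mice (two-sided exact permutation p = 0.452). Without single mice this difference ran from -1.01 to -0.10.

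**Figure D4:**
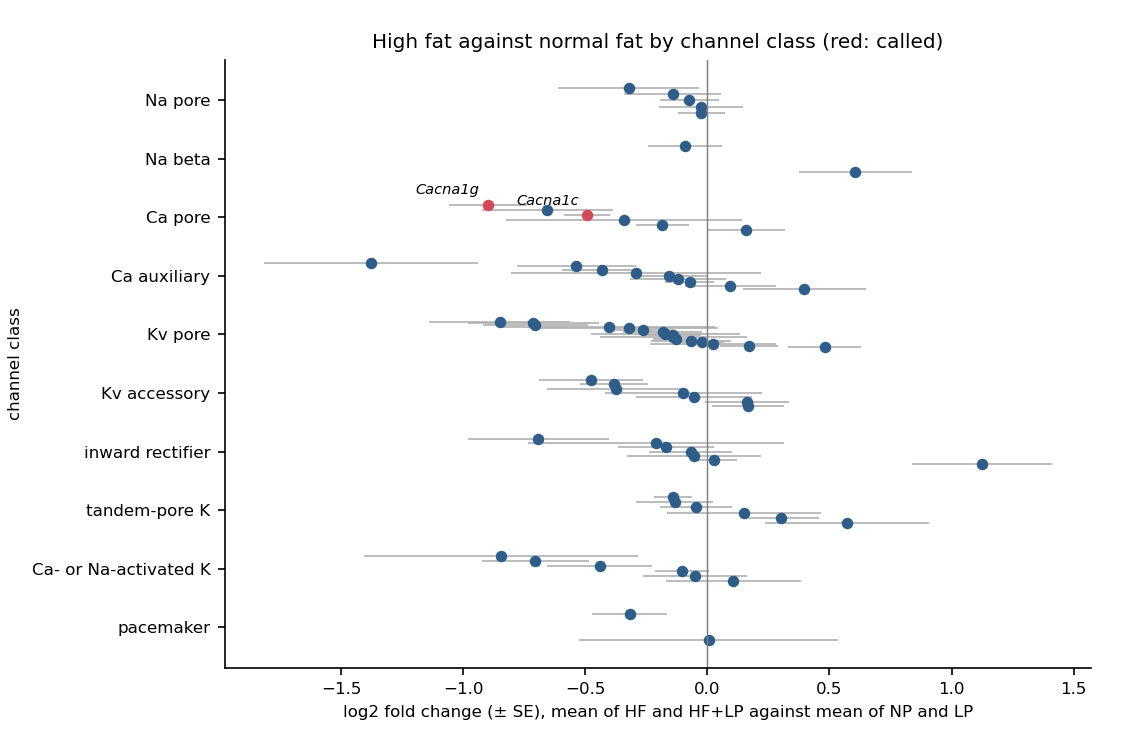
Log2 fold change with its SE for the averaged fat contrast (HF and HF+LP against NP and LP), each point 1 of the 66 tested channel genes, by class. The 2 called genes, in red, are Cacna1g at -0.90 and Cacna1c at -0.49, and 50 of the 66 points lie below 0.

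Among the calcium auxiliary subunits, Cacna2d1 ranged from 998 to 2627 and Cacnb2, the beta subunit of the cardiac L-type channel, from 504 to 925, and neither passed the test in any comparison. Cacna2d2 was the outlying member. Its normalized counts were 56.1, 75.2, 69.5, 73.1 and 64.5 in NP, 121, 54.0, 109, 35.2 and 32.2 in HF, 49.2, 43.1, 789, 316 and 133 in LP, and 34.4, 21.4, 73.2, 28.0 and 35.1 in HF+LP. The high LP values were those of mice 13, 15 and 20, the LP mice rich in Myl7 and the mice in which the atrial marker Bmp10 was high. HF+LP was below LP by a log2 fold change of -2.79 ± 0.63 (adjusted p = 0.0583, edgeR), and LP above NP by 1.99 ± 0.61 (adjusted p = 0.452, edgeR). Without LP mouse 13 these became -1.79 and 0.98, and without the 10 libraries rich in Myl7 they were -0.59 and -0.49.

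The abundance of 5 channel genes moved with the atrial marker score, 7.58% of the 66 against 1.44% of all tested genes (adjusted p under 0.01 for the score in the edgeR model with diet). Among them were Cacna1h, Cacna2d3, Cacna2d2 and Cacna1d, the last being the pore of the L-type channel known from nodal and atrial cells. The log2 count of these 4 rose by 0.37, 0.38, 0.30 and 0.16 for each unit of the score, which is the mean of the centred log2 counts of the 5 atrial markers. Bmp10, which atrial muscle expresses, was at 13692, 4485 and 1566 in LP mice 13, 15 and 20 and at 0 to 110 in the other mice. It was thus low in HF mouse 1, at 44.5, where Myl7 was 30515. Kcnj5, an inward rectifier subunit of the acetylcholine-activated current, rose by 0.11 per unit with an adjusted p of 0.0103 (edgeR).

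**Figure D5:**
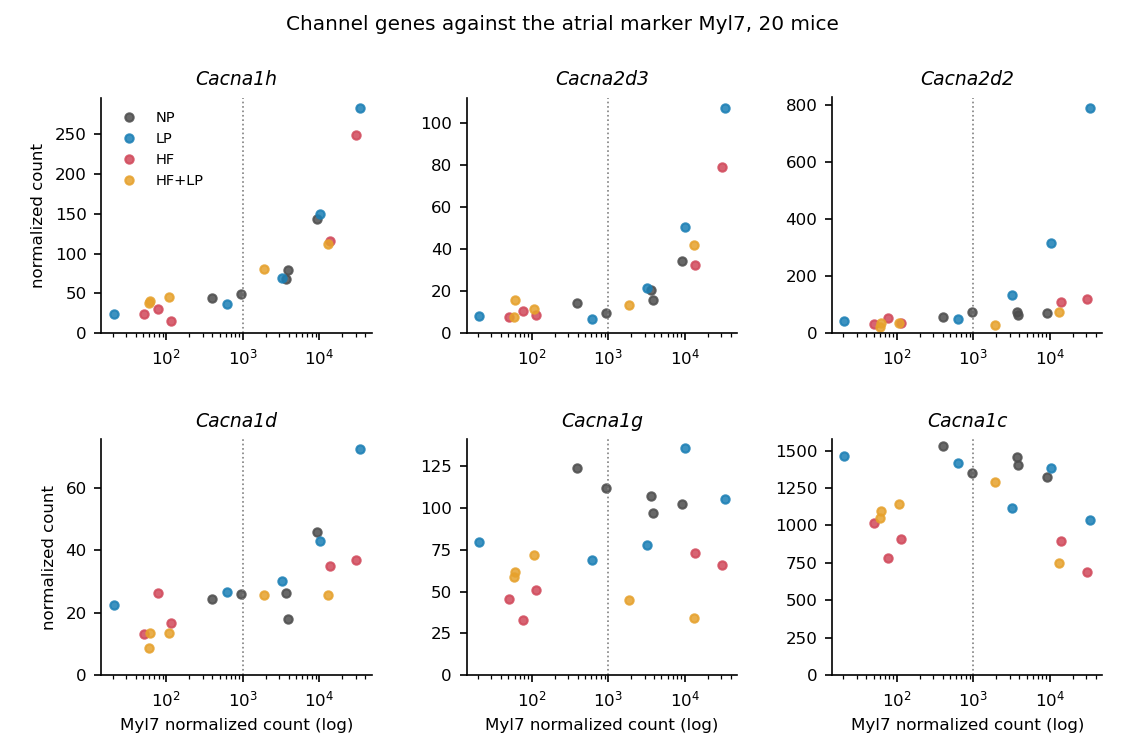
Normalized counts of 6 calcium channel genes against the normalized count of the atrial marker Myl7 (log axis) in 20 mice coloured by diet, with the dotted line at 1000. Cacna1h, Cacna2d3, Cacna2d2 and Cacna1d stand highest in libraries with much Myl7, while Cacna1g shows no such order along the axis. Cacna1c was lowest, within each diet, in the mouse with the highest Myl7. Its log2 count changed by -0.038 for each unit of the atrial marker score (adjusted p = 0.217, edgeR).

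Kcnk1, a weakly inward rectifying tandem-pore channel, showed another pattern. Its normalized counts were 161, 96.7, 82.6, 120 and 107 in NP, 59.8, 81.7, 69.0, 50.2 and 56.8 in HF, 55.9, 47.2, 55.3, 66.8 and 56.0 in LP, and 83.3, 51.3, 72.3, 71.7 and 140 in HF+LP. All LP mice and all HF mice were below all NP mice, and the HF+LP mice spread over both ranges. HF+LP was above LP by 0.58, and by 0.31 without HF+LP mouse 5. LP was below NP by -1.02 ± 0.23 (adjusted p = 0.387, edgeR) and HF below NP by -0.85 ± 0.23 (adjusted p = 0.0657, edgeR), comparisons that share the NP mice. The difference between the fat effects at low and at normal protein was 1.42 ± 0.32 (adjusted p = 0.614, edgeR). No pairwise value passed the adjustment, while the test of any difference among the 4 diets gave an adjusted p of 0.0399 (edgeR).

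In that test of 4 diets no channel gene reached the limit of 0.01, against 0.479% of all genes. At a limit of 0.05 and a mean over 50 there were 4, namely Cacna1g, Cacna1c, Cacna2d2 and Kcnk1, against 1.8% of all genes, and DESeq2 called 4 at the limit of 0.01, against 2.34% of all genes. At an unadjusted p under 0.05 there were 16 channel genes, against 15.9% of all genes. Kcnj14, an inward rectifier subunit with a mean of only 14.7, had an adjusted p of 0.0393 (edgeR). Its normalized counts were 14.3, 10.7, 11.8, 16.3 and 18.1 in NP, 21.6, 26.4, 13.1, 21.1 and 33.0 in HF, 10.6, 8.21, 2.52, 1.26 and 5.02 in LP, and 8.33, 28.8, 18.1, 13.4 and 11.3 in HF+LP. Every LP mouse was below every NP mouse, on counts that leave wide counting error.

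No inward rectifier gene, Kcnj14 included, was called in any comparison. Kcnj8, a pore of the ATP-sensitive channel of vascular smooth muscle and pericytes, was the steadiest, with group means from 550 to 603 and a coefficient of variation of 13.8%. Kcnj12 lay between 25.8 and 72.5. Kcnj2, the main pore of the classical inward rectifier current of ventricular muscle, had normalized counts of 59.4, 230, 129, 43.9 and 421 in NP, 43.2, 25.0, 307, 93.3 and 351 in HF, 176, 61.5, 384, 80.7 and 277 in LP, and 393, 96.2, 163, 108 and 21.7 in HF+LP. Each group thus held mice far apart, the group means lay between 156 and 196, and the adjusted p was 0.855 or higher in each pairwise comparison (edgeR). The log2 ratio of Kcnj2 to Kcnj12 was compared between diets in the same way as the other ratios and gave p values of 0.516 to 0.944 (two-sided exact permutation test).

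Voltage-gated potassium pore genes were lower in HF than in NP for 15 of 16 tested, with a median log2 fold change of -0.30, against 50.2% of all genes that were lower, and none was called. In HF+LP against LP, 9 of the 16 were lower, with a median of -0.09, against 54.2% of all genes. Kcnh2, the pore of the rapid delayed rectifier, was 1066 ± 250 in NP, 656 ± 162 in HF, 1161 ± 735 in LP and 711 ± 182 in HF+LP (SD, n = 5). Its value of 2375 in LP mouse 13 was the highest of all mice. HF was below NP by -0.70 ± 0.31 (adjusted p = 0.322, edgeR) and HF+LP below LP by -0.71 ± 0.30 (adjusted p = 0.258, edgeR), and the latter was -0.27 without LP mouse 13 and 0.14 without the 10 libraries rich in Myl7. Kcnq1, the pore of the slow delayed rectifier, was 449 ± 25.2 in NP and 345 ± 62.1 in HF, a difference of -0.38 ± 0.18 (adjusted p = 0.376, edgeR).

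Kcna5, a pore of the ultrarapid delayed rectifier, was the 1 tested pore gene of this class with a higher value in HF than in NP, by a log2 fold change of 0.50. Its normalized counts were 99.0, 106, 111, 108 and 116 in NP, 94.1, 216, 159, 137 and 162 in HF, 90.5, 90.3, 79.3, 113 and 61.0 in LP, and 131, 172, 88.4, 118 and 83.5 in HF+LP. HF mice other than mouse 1 were above all NP mice. The averaged fat contrast was 0.48 ± 0.15 (adjusted p = 0.0675, edgeR). Kcnv2, a silent subunit, was 78.1, 75.2, 91.8, 84.3 and 81.4 in NP, 61.0, 65.9, 84.7, 73.0 and 66.7 in HF, 53.2, 60.5, 63.5, 88.2 and 58.8 in LP, and 102, 100, 59.9, 96.3 and 121 in HF+LP. It was highest in the HF+LP mice other than mouse 3. HF+LP was above LP by 0.56 ± 0.17 (adjusted p = 0.126, edgeR) and above HF by 0.44 ± 0.17 (adjusted p = 0.714, edgeR), and the fat effects at the 2 protein levels differed by 0.79 ± 0.24 (adjusted p = 0.614, edgeR). Without the libraries rich in Myl7, HF+LP was above LP by 0.92. The transient outward pores Kcnd2 and Kcnd3 had group means of 331 to 404 and of 93.1 to 120, and Kcna4, a pore of the slow transient outward current, had group means of 7.04 to 10.7.

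Kcnip2, which traffics the Kcnd pores to the membrane, was 4499 ± 907 in NP, 3643 ± 720 in HF, 4963 ± 942 in LP and 3613 ± 1085 in HF+LP (SD, n = 5). The averaged fat contrast was -0.38 ± 0.14 (adjusted p = 0.12, edgeR), and HF+LP was below LP by -0.46 ± 0.20 (adjusted p = 0.26, edgeR). Without the libraries rich in Myl7 these were -0.16 and -0.21, and with the atrial marker score as a covariate -0.47 and -0.60. The log2 ratio of Kcnd2 to Kcnip2 was higher in HF+LP than in LP by 0.58 (two-sided exact permutation p = 0.0873). This was the smallest p of 16 tests of ratios, all of which had an adjusted p of 1, where 5 mice against 5 can give 0.00794 at the least. Kcne4, an inhibitory accessory subunit, was 53.4 to 67.2 in HF and 31.2 to 50.4 in HF+LP, and its difference was -0.58 ± 0.21 (adjusted p = 0.659, edgeR). Kcne1, the partner of Kcnq1, had group means of 74.3 to 91.6.

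Protein restriction under high fat, HF+LP against HF, called no channel gene, and 0% of all tested genes were called. DESeq2 also called no channel gene, against 0.114% of all genes. At an unadjusted p under 0.05 there were 6 channel genes, against 4.84% of all genes, and the count was 2 without HF+LP mouse 5, 3 without HF+LP mouse 4 and 9 without HF+LP mouse 2. Kcne4 was the 1 channel gene whose groups did not overlap, against 1.18% of all genes. Protein restriction at normal fat, LP against NP, called no channel gene by edgeR or DESeq2, against 0% of all tested genes by edgeR and 0.0286% by DESeq2. There, 12 channel genes had an unadjusted p under 0.05 (18.2%, against 7.23% of all genes), 7 of them lower in LP (against 2.21% of all genes). That count of 12 became 4 without LP mouse 20, 7 without LP mouse 13 and 6 without the libraries rich in Myl7. The 7 lower genes became 3 without LP mouse 20 and 4 without LP mouse 13 or NP mouse 3. LP and NP were apart for 4 channel genes, against 0.786% of all genes, and all 4 were lower in LP. Among them were Kcnk1, Kcnj14 and Scn4a, the pore of the skeletal muscle sodium channel, which had a mean of 23.5. Averaged over the fat levels, the protein contrast called no channel gene by edgeR or DESeq2, against 0% of all tested genes by edgeR and 0.00715% by DESeq2, with 5 channel genes at an unadjusted p under 0.05 against 5.47% of all genes, and 2 without the libraries rich in Myl7. The test of a difference between the fat effects at the 2 protein levels likewise called no channel gene by edgeR or DESeq2, against the same shares of all tested genes, with 11 channel genes at an unadjusted p under 0.05 against 7.17% of all genes. That count was 5 without LP mouse 20.

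Among the sodium channel genes, the beta subunit Scn4b, which supports the late and resurgent sodium currents, was 511 ± 132 in NP, 617 ± 317 in HF, 315 ± 108 in LP and 601 ± 204 in HF+LP. HF+LP was above LP by 0.93 ± 0.33 (adjusted p = 0.179, edgeR). Scn7a, a sodium-sensing relative of the pore genes, had group means of 256 to 286. Scn10a, a sodium pore known from sensory neurons, was 17.4 ± 3.78 in HF and 36.6 ± 11.6 in HF+LP, with a difference of 1.06 ± 0.41 (adjusted p = 0.779, edgeR).

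Tandem-pore Kcnk3 had group means of 7569 ± 641 in NP, 6595 ± 350 in HF, 7064 ± 1129 in LP and 6678 ± 771 in HF+LP (SD, n = 5), and HF was below NP by -0.20 ± 0.11 (adjusted p = 0.477, edgeR). Kcnk2, a stretch-sensitive member of the same class, had group means of 128 to 146. Of the calcium-activated channels, the small-conductance gene Kcnn1 had group means of 99.6 to 121. Kcnn2, another gene of that family, was 76.7 ± 22.6 in NP, 46.8 ± 26.5 in HF, 77.9 ± 13.5 in LP and 47.2 ± 10.1 in HF+LP, with -0.70 ± 0.22 for the averaged fat contrast (adjusted p = 0.0685, edgeR). The pacemaker gene Hcn2 was 117 ± 26.2 in NP and 80.2 ± 23.8 in HF, a difference of -0.56 ± 0.22 (adjusted p = 0.252, edgeR). Hcn4, the main pacemaker pore of the sinus node, had normalized counts of 0 to 11.8 and was among the 15 members with too few counts to test.

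The other genes of ventricular excitability, a list of 33 genes outside the channel families examined that holds other channels, channel subunits and regulators, anchors, junction proteins and transcription factors, gave no call in any comparison by edgeR among the 32 tested. At an unadjusted p under 0.05, 5 of them were lower and none was higher in HF than in NP, against 7.91% and 5.17% of all genes. The smallest p over the 4 diets were those of Ank3, Abcc8 and Ank2. Ank3 encodes an anchor of sodium channels and was 2012 ± 184 in NP, 1512 ± 136 in HF, 1764 ± 221 in LP and 1582 ± 195 in HF+LP, with -0.28 ± 0.08 for the averaged fat contrast (adjusted p = 0.0357, edgeR). Ank2, an anchor of ion transporters, had -0.34 ± 0.10 in that contrast (adjusted p = 0.0658, edgeR). Abcc8, a regulatory subunit of ATP-sensitive channels, had -0.55 ± 0.20 (adjusted p = 0.121, edgeR), with 477 ± 297 in LP.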

How the data were processed

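The authors prepared QuantSeq 3′ mRNA libraries from left ventricular tissue and deposited raw counts per Ensembl gene and mouse. Reads were aligned with BlueBee software per the methods, and the submitters' processing notes name GRCm38 and DESeq2 1.22.2. The counting program, its annotation and its strand setting were not given in the sources used here. The deposited table holds counts of 15956 genes, none with a sum under 60, and 15917 received a symbol from GENCODE M21. No member shared exons with a listed gene on the same strand and 8 did on the opposite strand, among them Cacna1d, Kcnd3, Kcnq1, Kcng2 and Kcnk3.

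Diet groups came from the labels, which also number the animals, so a mouse is the replicate. Counts were filtered with filterByExpr by diet, scaled by TMM and fitted in 1 model of all 20 libraries with edgeR 4.0.16 in R 4.3.3, tested on simulated data before use. SEs were derived from the F statistic. DESeq2 1.42.0, RLE scaling, other filters, covariates, a replicate block and leaving out each mouse were alternatives, and the 2 atrial marker alternatives were chosen after the data had been seen. Ratios used a pseudocount of 0.5. Named genes were the members called, Cacna1g, the 2 most abundant of each class and the members of textbook ventricular currents. Added to these were the 3 with the smallest p in each pairwise comparison, in the interaction and in the test among all diets. Others named with values were chosen after their values were seen. Some genes under this rule are not reported here. The members and the gene lists were chosen with earlier results of these data known.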

Additional observations from a re-analysis of the deposited data

Results flagged for a closer look

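Among 148 pairs of a named gene and a diet group, 2 held a mouse whose gap to its nearest neighbour exceeded 0.71 of the range of the 5 mice, a limit that chance alone passes in about 1 of 20 such groups. In HF+LP mouse 3, Cacna2d2 stood at a normalized count of 73.2, against 21.4 to 35.1 in the other HF+LP mice. That library had the highest Myl7 of its group, and the part of the atrial markers in this value was not tested. In HF+LP mouse 5, Scn4b stood at a normalized count of 249, against 620 to 756 in the other HF+LP mice. No channel gene had an interaction with an adjusted p under 0.05 by edgeR.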

How the results depend on the processing

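Over 8 comparisons, the count of called channel genes moved under 27 of the alternatives. Between HF and NP it was 0. It was 2 (Cacna1c and Cacna1g) with a limit of 0.05 on adjusted p or with DESeq2. It was 1 with at least 10 counts in every library and 1 with the atrial score as a covariate. Calls over all genes were 37 there, and 157, 163, 42 and 52 under these alternatives in that order. Over the 4 diets it was 4 with the limit of 0.05 or with DESeq2 and 1 with the atrial score, and between HF+LP and LP it was 1 with DESeq2. In the averaged fat contrast the count of channel genes fell from 2 to 0 with the animal number as a replicate block (Cacna1c -0.56 and Cacna1g -0.81, against -0.49 and -0.90). It also fell to 0 without the 10 libraries rich in Myl7, which leaves fewer mice. Calls over all genes in that contrast fell from 140 to 13 with the block and to 10 without those libraries. Leaving out 1 mouse at a time gave 1 to 2 channel genes there, against 79 to 198 of all genes. Between HF and NP it gave 0 to 1 (Cacna1c, without LP mouse 13 or 20 or HF+LP mouse 3), against 20 to 69 of all genes. Over the 4 diets it gave 0 to 1 (without LP mouse 5 or 13), against 33 to 101 of all genes.

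Of 1733 alternatives for 55 pairs of a named gene and a comparison, 13 changed sign, in 4 pairs. Cacna1g between HF+LP and HF was 0.01 and became -0.013 with RLE scaling, -0.014 with DESeq2 and -0.0083 with mitochondrial genes removed, it was 0.54 without the Myl7-rich libraries, and leaving out single mice gave -0.11 to 0.15. Cacna2d2 between LP and NP was -0.27 with the replicate block and -0.49 without the Myl7-rich libraries, where its interaction was 0.082 and Kcnh2 between HF+LP and LP was 0.14. For the log2 ratios, none of which passed the test, leaving out single mice gave sign changes within these ranges. Cacna1g to Cacna1h ran from -0.65 to 0.27 (HF+LP against HF), from -0.75 to 0.042 (LP against NP) and from -0.79 to 0.019 (HF+LP against LP). Hcn4 to Hcn2 ran from -1.02 to 0.26 (HF against NP), from -0.46 to 0.52 (HF+LP against HF), from -0.78 to 0.22 (LP against NP) and from -0.39 to 0.27 (HF+LP against LP). Kcnd2 to Kcnip2 ran from -0.19 to 0.14 (HF against NP). Kcnj2 to Kcnj12 ran from -0.66 to 0.50 (HF against NP), from -0.50 to 0.75 (HF+LP against HF) and from -1.09 to 0.0019 (HF+LP against LP). The causes of these moves were not tested.

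Same-numbered mice are different animals. Those of HF and HF+LP also share the first number of the library name, whose meaning was not given in the sources used here. Deviations from the group means correlated by -0.55 to 0.48 over the 16 same-numbered pairs, and 7 of them were over 0.1. Over the 134 pairs of other numbers the range was -0.61 to 0.71, and 52 were over 0.1. Genes with a mean under 50, among them Kcnj14 and the 15 members not tested, are limited by depth, and intervals here cover the spread between these mice.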

Other observations

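Kcnj2 varied more within each diet group than between the groups, and other genes varied with it. Over the 20 mice, 178 of 13990 tested genes had a correlation over 0.9 with the log2 count of Kcnj2. The 4 genes most like it were Wdr11, Mrps28, Slc20a2 and Sdhd, where Sdhd encodes a membrane subunit of succinate dehydrogenase. Sdhd ranged from 71.2 to 3924 normalized counts, with the lowest value in HF+LP mouse 5 and the highest in HF mouse 5, the mice in which Kcnj2 was 21.7 and 351. Pearson's r of the log2 counts of Kcnj2 and Sdhd was 0.98 and Spearman's rho 0.965. Without the 2 mice farthest from the median of Sdhd, r was 0.978. The pair was chosen for this likeness, so no test is given, the points share libraries, and what moves these genes together was not tested.

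Kcnn4, an intermediate-conductance calcium-activated potassium channel known from blood and smooth muscle cells, had a normalized count of 212 in LP mouse 20 and of 5.21 to 18.4 in the 19 other mice, and was named after its values were seen.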
